A study of Danio rerio with 6 samples.

Results

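The solute carrier genes of the zebrafish were followed in regenerating larval fins with and without a synthetic glucocorticoid. Members were all genes measured by at least 1 probe set whose single annotated gene symbol starts with slc and a digit. This rule gave 137 genes on 158 probe sets, of 8793 genes and 15502 probe sets tested. Of the 137, slc4a1ap and slc7a6os are named after a neighbouring or bound carrier and encode no carrier themselves, which leaves 135 carriers. Fins of AB strain larvae were amputated 2 days post fertilization and the regenerate was taken 1 day later. The exposed group, labelled Beclo, was kept in water with 1 uM beclomethasone. The other group, labelled control, is called a vehicle control in the series description, and the exposed larvae's protocol gives the vehicle as DMSO, while the controls' own protocol names no vehicle. Each group had 3 pools of 150 fins, and each pool was measured on 1 array. The regenerate holds all cell types of the fin tip and its stump, so fewer cells of a type and less RNA per cell cannot be told apart.

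Solute carriers are membrane proteins that move small molecules into and out of cells and organelles, some by passive exchange and some by coupling to the sodium, proton or chloride gradient. They are grouped in numbered families by sequence, and the family number tells in most cases the kind of substrate: slc7 and slc38 carry amino acids, slc2 glucose and other sugars, slc4 and slc26 bicarbonate and other anions, and slc25 metabolites across the inner membrane of mitochondria. In larval fish the skin of the fin takes up and releases ions and nitrogen waste, and glucocorticoids are known to regulate ion uptake, urea handling and fuel use.

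The deposited values were ratios, for most probe sets to the median of the 6 arrays, so a value of 1 is the middle of the 6 arrays and says nothing about abundance. Ratios cannot show whether markers of fin epidermis and mesenchyme were present at a high or low level, and no level of a gene was compared with that of another. For 23 of the 137 genes every probe set had a median below 1, and none of these 23 passed the test, with differences from -0.16 to 0.74 on the log2 scale. The other 114 genes held all 17 calls. Every difference is the mean log2 ratio of exposed pools less that of control pools, given with its standard error (SE) from limma and n = 3 pools per group. P-values were adjusted by the Benjamini-Hochberg method over all 8793 genes, with a threshold of 0.05.

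Some pools stood apart from the others of their group. Among the 137 genes, ratios above 2 were found for 11, 2 and 0 in exposed pools 1 to 3 (8.03%, 1.46% and 0%). The shares of all genes there were 1.47%, 0.455% and 0.102%. In control pools 1 to 3 they were found for 0, 1 and 1 (0%, 0.73% and 0.73%), beside 0.842%, 0.58% and 0.466% of all genes. Ratios under 0.5 were found for 4, 3 and 2 members in exposed pools 1 to 3 (2.92%, 2.19% and 1.46%). The shares of all genes there were 3.86%, 2.93% and 2.27%. Control pools 1 to 3 had 12, 6 and 9 such members (8.76%, 4.38% and 6.57%), beside 4.73%, 4.16% and 3.97% of all genes. Exposed pool 1, with the most members above 2, also had the highest medians of neuron and of muscle markers. Medians of the 12 measured neuron markers were 1.05, 0.19 and 0.21 across exposed pools 1 to 3, on the log2 scale. Across control pools 1 to 3 they were -0.53, -0.28 and -0.42. Medians of 18 muscle markers were 0.81, 0.01 and 0.05 across exposed pools 1 to 3, against -1.81, -0.0097 and -1.29 across control pools 1 to 3, which puts control pool 2 beside the exposed pools. Medians of 14 leukocyte markers were -0.11, -0.0027 and 0.01 across exposed pools 1 to 3, against -0.22, 0.38 and 0.53 across control pools 1 to 3, and here control pool 1 lay apart from control pools 2 and 3. The 20 measured liver and yolk lipoprotein markers had medians of 0.92, 1.82 and 0.04 across exposed pools 1 to 3, against -0.37, -0.35 and -0.18 across control pools 1 to 3. Some markers of the fin's own tissues also differed between the groups. Of 25 epidermis markers, 11 fell (44%) and 2 rose (8%), beside 4.58% and 4.24% of all genes tested, and their median difference was -0.48. Their pool medians were -0.26, -0.23 and -0.44 across exposed pools 1 to 3, against 0.25, 0.03 and 0.16 across control pools 1 to 3. The groups did not overlap in these medians. Of 19 fin fold mesenchyme markers, 4 rose (21.1%, beside 4.24% of all genes) and none fell. Their median difference was 0.07, with 12 positive and 7 negative. Their pool medians were -0.02, 0.13 and 0.04 across exposed pools 1 to 3, against 0.05, -0.06 and -0.13 across control pools 1 to 3. In these medians the groups overlapped. The part of these tissues in the values of the carrier genes was not tested.

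Carrier genes rose more often than they fell. Of the 137 genes, 14 rose (10.2%) and 3 fell (2.19%), where 4.24% of all genes tested rose and 4.58% fell. In either direction 17 members passed (12.4%), beside 8.83% of all genes. By an unadjusted limma p under 0.05, 33 members were up and 6 down, beside 1116 up and 1005 down of all 8793 genes. The pools of the groups did not overlap for 38 genes that were higher (27.7%) and 9 that were lower (6.57%) in exposed fins, beside 16% and 13.7% of all genes. In either direction 47 members did not overlap (34.3%), beside 29.7% of all genes. The median difference of the 137 genes was 0.07 and that of all genes 0.02. Per pool, the median log2 ratio of the carrier genes was -0.025, 0.0045 and 0.035 across exposed pools 1 to 3, against -0.15, -0.11 and -0.12 across control pools 1 to 3. The groups did not overlap in this median, and no p is given for it because the members were chosen as a family. Leaving out exposed pool 1, 2 or 3 left 7, 6 or 5 members that rose and 1 that fell in each case, while 168, 164 or 163 of all genes rose and 177, 179 or 172 fell, beside 373 and 403 with all 6 arrays. Leaving out control pool 3 left 6 and 1 members (160 and 208 of all genes), and leaving out control pool 2 left 13 and 1 (305 and 216). Leaving out control pool 1 gave 17 members that rose and 5 that fell (446 and 527). The counts of all genes thus moved along with those of the carriers.

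**Figure D1:**
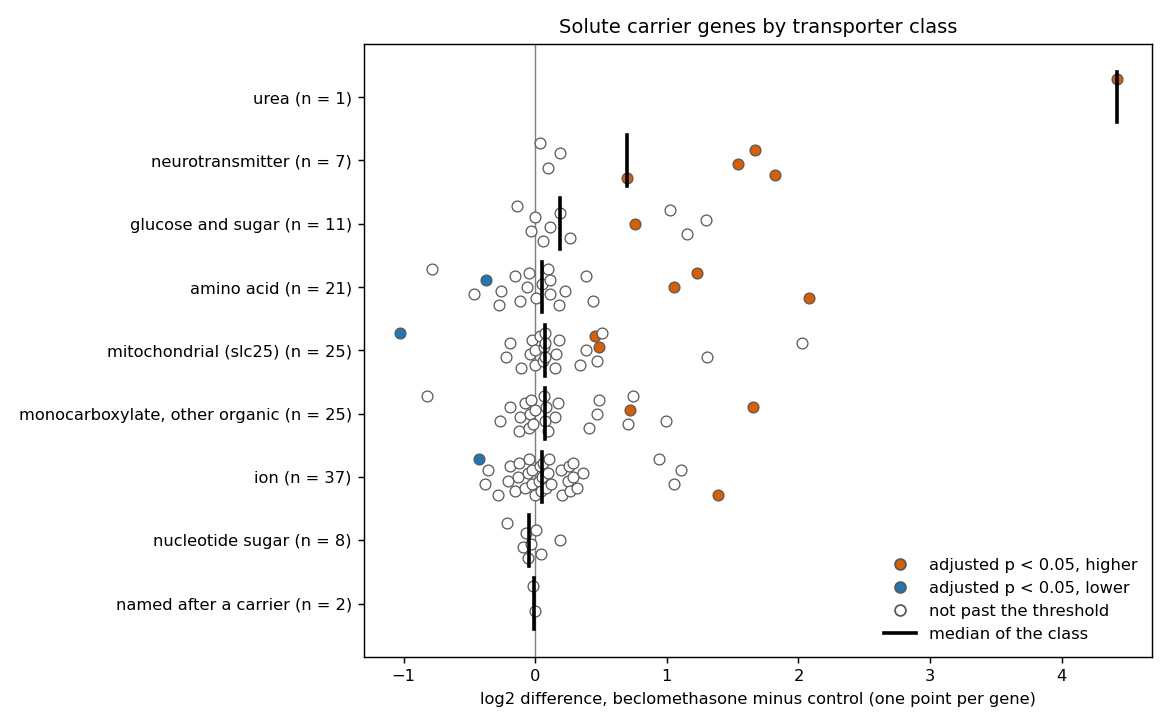
Log2 difference of each of the 137 solute carrier genes, beclomethasone minus control, by transporter class, with genes past an adjusted p of 0.05 filled and the class median as a black bar. The urea transporter gene lies at 4.42, while the nucleotide sugar carriers stay between -0.22 and 0.19.

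The urea transporter gene slc14a2 showed the largest difference of the family and the third highest of all genes tested. It encodes a carrier that lets urea cross cell membranes down its gradient, and its mammalian namesake works in the kidney. Its ratios were 2.09, 2.02 and 1.90 across exposed pools 1 to 3, against 0.0908, 0.0926 and 0.0978 across control pools 1 to 3. The 3 exposed pools lay close together and far above the 3 control pools, which were also close together. The ratios do not show how far above background the control pools lay, which leaves the size of the fold uncertain. The difference was 4.42 ± 0.09 (SE; 21.4-fold; 95% interval 4.21 to 4.63; adjusted p = 1.73e-06). The call held without any 1 of the 6 arrays, where the difference ran from 4.39 to 4.45. Slc14a2 was the only urea carrier among the members.

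Among 21 amino acid carriers, 3 rose and 1 fell (19% in either direction, beside 8.83% of all genes), with a class median of 0.05. The largest rise was that of slc38a8b, of the family of sodium-coupled neutral amino acid transporters, with ratios of 3.25, 1.66 and 1.47 across exposed pools 1 to 3, against 0.450, 0.529 and 0.439 across control pools 1 to 3. All exposed pools lay above all control pools, and exposed pool 1 was the highest. Its difference was 2.08 ± 0.28 (adjusted p = 0.00732), or 4.23-fold. Exposed pool 1 was also the pool with the highest neuron and muscle marker medians. The part of neurons or muscle in the value of slc38a8b was not tested. The pools of each group lay close together for slc43a2a, whose mammalian counterpart lets branched-chain and other large neutral amino acids leave cells. Its ratios were 1.53, 1.35 and 1.36 across exposed pools 1 to 3, against 0.648, 0.606 and 0.560 across control pools 1 to 3, and its difference 1.23 ± 0.10 (adjusted p = 0.00154), or 2.34-fold. Both calls held without any 1 array.

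Slc3a2b encodes a heavy chain that carries the slc7 light chains to the cell surface. It rose by 1.06 ± 0.23 (adjusted p = 0.0338), from control ratios of 0.868, 0.456 and 0.561 to exposed ratios of 1.40, 1.26 and 1.13. Control pool 1 was the highest control pool, and the call needed each of the exposed pools and control pools 2 and 3. The difference of slc3a2b ran from 0.85 to 1.32 when 1 array was left out. Of its possible partners, the light chain gene slc7a8a, of an exchanger for neutral amino acids, had a difference of 0.39 ± 0.13 (adjusted p = 0.118). The light chain gene slc7a7, of an exchanger for cationic and neutral amino acids, had one of -0.79 ± 0.53 (adjusted p = 0.436). Slc7a3a, which encodes a carrier for arginine and lysine with no need of a heavy chain, fell by 0.38 ± 0.09 (adjusted p = 0.0404), with ratios of 0.862, 0.897 and 0.860 across exposed pools 1 to 3, against 1.12, 1.18 and 1.10 across control pools 1 to 3. The groups did not overlap, but the call needed all 6 arrays, with differences from -0.40 to -0.35 when 1 was left out. It was also lost with a block on replicate number or probe sets as the unit.

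Slc7a7 stood apart in the same control pools as the leukocyte markers. Its ratios were 1.09, 0.908 and 0.794 across exposed pools 1 to 3, against 0.615, 2.35 and 2.80 across control pools 1 to 3. Control pools 2 and 3 stood above the exposed pools and control pool 1 below them, as in the leukocyte marker medians given above, while within the exposed pools slc7a7 and these medians ran in opposite order. In zebrafish slc7a7 is known as a gene of macrophages and microglia. Without control pool 1, the control pool below the exposed pools, its difference passed the test (-1.47, adjusted p = 0.00192). It did not pass with any other 1 array left out (adjusted p from 0.486 to 0.737). Slc38a2, of a neutral amino acid transporter that mammalian cells raise when amino acids run short, had ratios of 1.09, 0.899 and 0.908 across exposed pools 1 to 3, against 0.852, 1.84 and 1.50 across control pools 1 to 3. Its difference was -0.47 ± 0.27 (adjusted p = 0.356), and without control pool 1 it also passed (-0.79, adjusted p = 0.0147). Leaving out any other 1 array gave no pass (adjusted p from 0.392 to 0.710). Of the 14 leukocyte markers, 2 rose (14.3%, beside 4.24% of all genes), none fell and 11 had a negative difference. The part of leukocytes in these values was not tested. Without control pool 1 slc38a4, of the same family as slc38a2, passed in the other direction (0.53, adjusted p = 0.0220), where all 6 arrays gave 0.44 ± 0.11 (adjusted p = 0.0546). Slc38a4 did not pass with any other 1 array left out (adjusted p from 0.106 to 0.154).

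The remaining 13 amino acid and peptide carriers did not pass. Slc43a1a, of another exporter of large neutral amino acids, was the nearest of them to the threshold among those below 0, with -0.26 ± 0.09 (adjusted p = 0.120) and ratios of 0.893, 0.945 and 0.910 across exposed pools 1 to 3, against 1.13, 1.05 and 1.10 across control pools 1 to 3. The neutral amino acid exchanger gene slc1a4 had -0.28 ± 0.13 (adjusted p = 0.269), the peptide transporter gene slc15a1b 0.18 ± 0.13 (adjusted p = 0.452) and the cationic amino acid carrier gene slc7a1b 0.10 ± 0.10 (adjusted p = 0.641). The intestinal and renal carrier genes slc6a19a.1 and slc6a19b had differences of -0.06 and -0.05. The other 7 amino acid and peptide carriers had differences from -0.16 ± 0.11 (slc6a17) to 0.23 ± 0.13 (slc38a6), none of which passed, and in 1 of them the groups did not overlap. Over the whole class the groups did not overlap for 8 of 21 (38.1%), beside 29.7% of all genes.

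Of 11 glucose and sugar carriers, 1 rose and none fell in limma. By an unadjusted p under 0.05, 4 were up and 0 down, beside 1116 up and 1005 down of all 8793 genes. The share that passed was 9.09%, beside 8.83% of all genes, and the class median was 0.19. The gene that passed was slc2a15b, a sugar transporter gene that in medaka is needed for yellow and white pigment cells. Its gene-level ratios were 1.22, 1.20 and 1.33 across exposed pools 1 to 3, against 0.799, 0.789 and 0.639 across control pools 1 to 3, and the difference was 0.76 ± 0.12 (adjusted p = 0.0118). Its probe sets did not move alike. One gave ratios of 1.26, 1.50 and 1.72 in exposed and 0.692, 0.744 and 0.429 in control pools, a difference of 1.29 ± 0.23 (adjusted p over all probe sets = 0.0213). The other, with a median below 1, gave 0.22 ± 0.12 (adjusted p over all probe sets = 0.360). The call of slc2a15b needed exposed pool 3, and its difference ran from 0.65 to 0.81 when 1 array was left out.

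Larger differences that did not pass were found for 3 sugar carriers with unequal pools. Slc2a3a is related to the high-affinity glucose transporter of mammalian neurons. Its ratios were 3.09, 1.57 and 1.12 across exposed pools 1 to 3, against 0.693, 0.815 and 0.877 across control pools 1 to 3. Its difference was 1.15 ± 0.34 (adjusted p = 0.0823). Exposed pool 1 was its highest pool, as for the neuron and muscle marker medians. The part of neurons or muscle in the value of slc2a3a was not tested. Slc2a11b, which in medaka also acts in pigment cells, had ratios of 1.30, 1.13 and 1.35 across exposed pools 1 to 3, against 0.390, 0.873 and 0.691 across control pools 1 to 3. Its difference was 1.02 ± 0.28 (adjusted p = 0.0639). It passed without control pool 1 or 2, but not with any other 1 array left out (adjusted p from 0.117 to 0.193). Of 6 measured markers of melanophores, the black pigment cells, 1 rose (16.7%, beside 4.24% of all genes) and none fell. This was dct (1.25 ± 0.13, adjusted p = 0.00242), and the median difference of the 6 was 0.04, with 5 positive and 1 negative. The ratios of kita, mc1r, pmelb and tyr were below 1 in every pool. How such values relate to background is unknown, so this median does not show that these markers were unchanged. The part of pigment cells in the values of slc2a15b and slc2a11b was not tested. Slc37a4b belongs to the transporters that bring glucose 6-phosphate into the endoplasmic reticulum. Its ratios were 2.04, 0.895 and 1.48 across exposed pools 1 to 3, against 0.372, 1.11 and 0.440 across control pools 1 to 3, so that control pool 2 lay above exposed pool 2, and its difference was 1.30 ± 0.45 (adjusted p = 0.129). It passed without control pool 2 (1.78, adjusted p = 0.0303), but not with any other 1 array left out (adjusted p from 0.114 to 0.328). Like the muscle markers, it was lowest in control pools 1 and 3, and the part of muscle in its value was not tested. Slc2a2, of the glucose transporter of liver and gut, had 0.19 ± 0.28 (adjusted p = 0.761), with exposed ratios of 0.758, 1.08 and 1.79 and control ratios of 0.995, 0.992 and 1.00. The other sugar carriers lay between -0.14 (slc37a4a) and 0.27 (slc2a11l).

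Of 7 neurotransmitter carriers, 4 rose and none fell in limma. By an unadjusted p under 0.05, 4 were up and 0 down, beside 1116 up and 1005 down of all 8793 genes. The share that passed was 57.1%, beside 8.83% of all genes. The class median was 0.69. Slc18a3a encodes the transporter that loads acetylcholine into synaptic vesicles. Its ratios were 3.21, 1.42 and 1.30 across exposed pools 1 to 3, against 0.301, 0.696 and 0.641 across control pools 1 to 3, and it rose by 1.82 ± 0.43 (adjusted p = 0.0427). Slc32a1 encodes the vesicular transporter of GABA and glycine. Its ratios were 2.83, 1.56 and 1.33 across exposed pools 1 to 3, against 0.421, 0.673 and 0.639 across control pools 1 to 3, and it rose by 1.67 ± 0.30 (adjusted p = 0.0201). In both, exposed pool 1 was the highest and control pool 1 the lowest pool.

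The other 2 that rose take up glutamate from the space around synapses, in mammals mainly into glia. Slc1a2b had ratios of 3.07, 1.31 and 1.38 across exposed pools 1 to 3, against 0.526, 0.686 and 0.623 across control pools 1 to 3, and rose by 1.54 ± 0.32 (adjusted p = 0.0279). Slc1a3a had ratios of 1.17, 1.32 and 1.08 across exposed pools 1 to 3, against 0.915, 0.692 and 0.625 across control pools 1 to 3, and rose by 0.69 ± 0.16 (adjusted p = 0.0404). For slc1a3a exposed pool 2 was the highest pool and control pool 1 the highest control, an order unlike that of the other 3. The GABA transporter gene slc6a11a had a difference of 0.19 ± 0.10 (adjusted p = 0.322), the vesicular nucleotide transporter gene slc17a9b 0.09 ± 0.12 (adjusted p = 0.716) and the dopamine transporter gene slc6a3, whose probe set had a median below 1, 0.04 ± 0.09 (adjusted p = 0.862).

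General neuron markers moved the same way. Of 12 measured, 5 rose (41.7%, beside 4.24% of all genes) and none fell. The groups did not overlap for 10, all higher in exposed fins (83.3%, beside 16% of all genes), and the median difference was 0.85. Stmn2a, a gene of growing axons, had a difference of 1.53 ± 0.23 (adjusted p = 0.0102) and snap25a, of the synaptic vesicle fusion machinery, one of 1.40 ± 0.32 (adjusted p = 0.0401). The part of neurons in the values of these carriers was not tested. Of the 4 carriers, 2 passed with exposed pool 1 left out, 1 with exposed pool 2, exposed pool 3 or control pool 2 left out, and 0 with control pool 3 left out. The call of slc32a1 needed exposed pool 2 and control pool 3, that of slc1a2b exposed pool 3 and control pools 2 and 3, and those of slc18a3a and slc1a3a each of the exposed pools and control pools 2 and 3. When 1 array was left out, differences ran from 1.35 to 1.89 for slc32a1 and from 1.15 to 1.76 for slc1a2b. Those of slc18a3a ran from 1.41 to 2.06 and those of slc1a3a from 0.58 to 0.85. Other processing also ended calls, and a block on replicate number ended all 4. The call of slc18a3a was also lost with centring, a variance trend, a pseudocount of 1 or probe sets as the unit. That of slc1a2b was lost with the pseudocount, and that of slc1a3a with quantile normalization or probe sets as the unit.

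**Figure D2:**
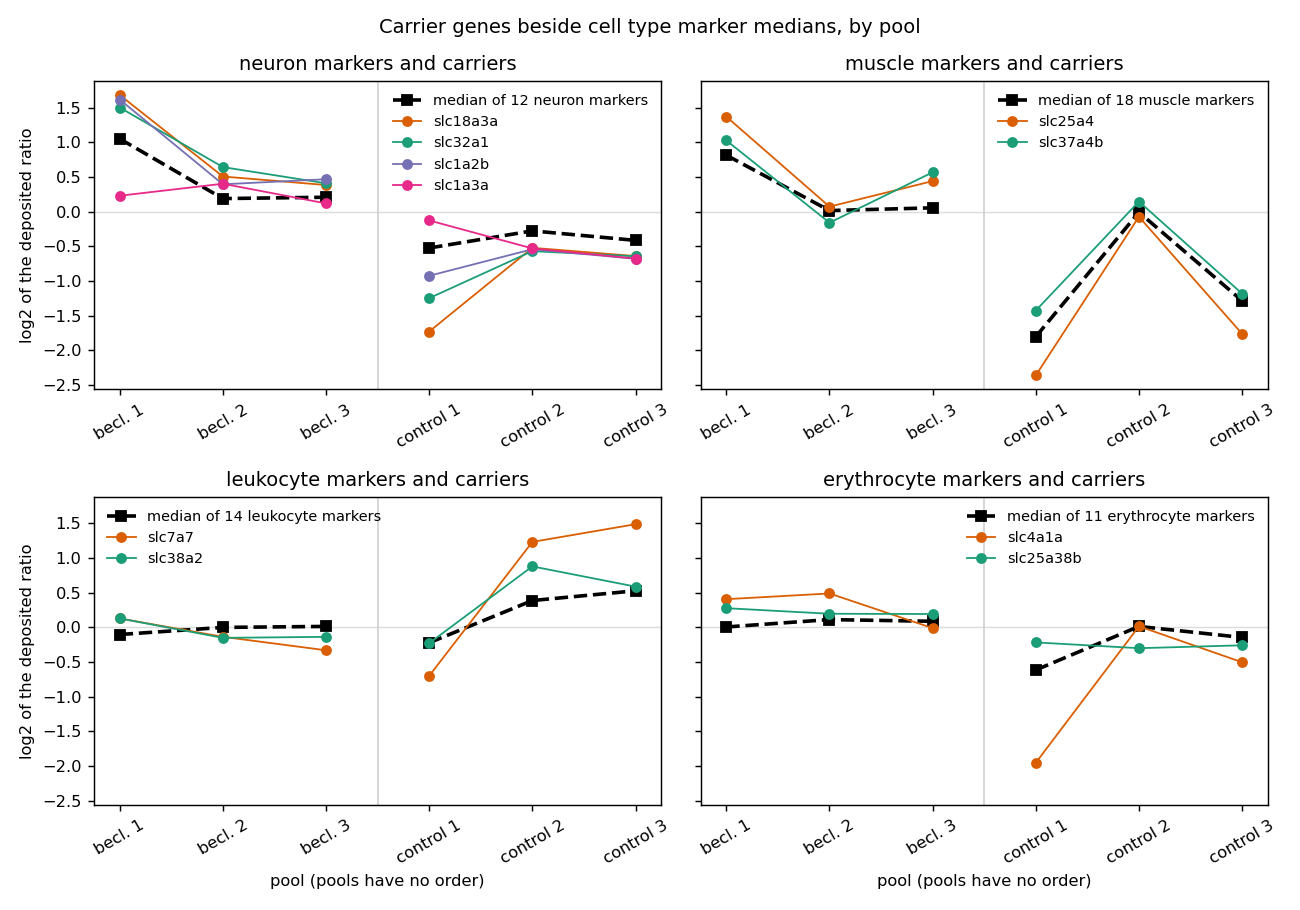
Log2 ratio of carrier genes by pool beside the median log2 ratio of markers of neurons, muscle, leukocytes and erythrocytes (black squares), with exposed pools (becl.) on the left of each panel and control pools on the right. Slc25a4 and slc37a4b are lowest in control pools 1 and 3, as the muscle markers are, and slc7a7 is highest in control pools 2 and 3, as the leukocyte markers are.

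Ion carriers were the largest class, and of 37 measured 1 rose and 1 fell, with a class median of 0.05. In either direction 5.41% passed, beside 8.83% of all genes. The rise was that of slc26a5, of the anion transporter family, whose product prestin is known as the motor protein of outer hair cells in the mammalian ear. Its ratios were 1.41, 1.44 and 1.37 across exposed pools 1 to 3, against 0.474, 0.518 and 0.633 across control pools 1 to 3. The exposed pools lay close together above all controls, and the difference was 1.39 ± 0.12 (adjusted p = 0.00161), or 2.62-fold. The call held without any 1 array.

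The fall was that of slc4a2a, which encodes a chloride-bicarbonate exchanger found in many tissues, with a difference of -0.43 ± 0.10 (adjusted p = 0.0402). It rested on 1 of 3 probe sets. That probe set gave ratios of 0.701, 0.818 and 0.545 in exposed and 1.18, 1.72 and 1.71 in control pools, a difference of -1.16 ± 0.20 (adjusted p over all probe sets = 0.0215). The other two gave 0.01 ± 0.14 (adjusted p over all probe sets = 0.986) and -0.14 ± 0.16 (adjusted p over all probe sets = 0.721). With the median of the probe sets in place of the mean, slc4a2a did not pass (-0.21, adjusted p = 0.451). The call also needed each of the exposed pools and control pools 2 and 3, with differences from -0.49 to -0.37 when 1 array was left out.

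A split between probe sets was also seen for slc12a9, of the cation-chloride cotransporter family. A probe set with ratios of 1.38, 1.28 and 1.52 in exposed and 0.719, 0.656 and 0.682 in control pools had a difference of 1.02 ± 0.11 (adjusted p over all probe sets = 0.00370). The other, with ratios of 0.906, 0.896 and 1.01 in exposed and 1.03, 0.991 and 1.49 in control pools, had -0.30 ± 0.17 (adjusted p over all probe sets = 0.389). The mean of both was 0.36 ± 0.12 (adjusted p = 0.113), which did not pass. In all, 18 members had several probe sets, and in 6 of them the probe sets differed in sign.

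Among the other anion carriers, slc4a1a, the anion exchanger of the red blood cell membrane, had ratios of 1.32, 1.40 and 0.991 across exposed pools 1 to 3, against 0.258, 1.01 and 0.705 across control pools 1 to 3, and a difference of 1.11 ± 0.46 (adjusted p = 0.195). Control pool 1 was far below the other pools, and the 11 erythrocyte markers had medians of 0.0036, 0.11 and 0.09 across exposed pools 1 to 3, against -0.62, 0.01 and -0.15 across control pools 1 to 3, with control pool 1 the lowest as well. None of the erythrocyte markers passed in limma. By an unadjusted p under 0.05, 3 were up and 1 down, beside 1116 up and 1005 down of all 8793 genes. The part of red blood cells in the value of slc4a1a was not tested. Slc26a10 had ratios of 3.04, 1.18 and 1.04 across exposed pools 1 to 3, against 0.658, 0.964 and 0.651 across control pools 1 to 3, with exposed pool 1 far above all others, and a difference of 1.06 ± 0.40 (adjusted p = 0.156). The bicarbonate cotransporter gene slc4a4b had -0.08 ± 0.15 (adjusted p = 0.805). The sulfate transporter genes slc26a1 and slc26a2, each with a probe set median below 1, had differences of 0.12 and 0.04.

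In limma no call was made among 5 phosphate carriers, 11 zinc carriers and 3 carriers of iron, copper or magnesium. By an unadjusted p under 0.05, 1, 2 and 0 of these were up and 0 down. The same measure gave 1116 up and 1005 down of all 8793 genes. The phosphate transporter gene slc20a1a had ratios of 1.27, 1.05 and 1.19 across exposed pools 1 to 3, against 0.365, 0.947 and 0.649 across control pools 1 to 3. Its difference was 0.94 ± 0.31 (adjusted p = 0.116). It passed without control pool 2 (1.26, adjusted p = 0.0361), but not with any other 1 array left out (adjusted p from 0.0847 to 0.282). Its paralogue slc20a1b had 0.20 ± 0.10 (adjusted p = 0.268). Of the zinc transporters, slc39a13 had 0.32 ± 0.10 (adjusted p = 0.0970) and slc30a5 0.29 ± 0.11 (adjusted p = 0.155), and in both the exposed pools lay above the controls. The iron exporter gene slc40a1 had -0.36 ± 0.16 (adjusted p = 0.238), with ratios of 0.990, 0.876 and 0.879 across exposed pools 1 to 3, against 1.50, 1.01 and 1.06 across control pools 1 to 3. The iron importer gene slc11a2 had 0.25 ± 0.11 (adjusted p = 0.231).

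Ion carriers coupled to sodium or potassium did not pass either. The thiazide-sensitive cotransporter gene slc12a3, whose probe sets all had a median below 1, had 0.08 ± 0.09 (adjusted p = 0.669). The potassium-chloride cotransporter gene slc12a7b had -0.38 ± 0.12 (adjusted p = 0.102) and the sodium-proton exchanger gene slc9a7 -0.28 ± 0.26 (adjusted p = 0.593). Control pools 2 and 3 were highest for slc9a7, at 1.19 and 1.59. The medians of 9 measured ionocyte markers were -0.09, -0.21 and -0.08 across exposed pools 1 to 3, against -0.42, -0.30 and -0.53 across control pools 1 to 3, where ionocytes are the salt-transporting cells of larval skin. Of these markers 3 rose (33.3%, beside 4.24% of all genes). The 1 that fell (11.1%, beside 4.58% of all genes) was the carbonic anhydrase gene ca2 (-1.39 ± 0.20, adjusted p = 0.00837). Of the 9, 5 are sodium pump genes, and 2 of these, atp1a1a.2 and atp1b1b, are among the 3 that rose. The other 20 ion carriers had differences from -0.21 ± 0.15 (slc9a8) to 0.29 ± 0.14 (slc24a4a), none of which passed, and in 0 of them the groups did not overlap. Over the whole ion class the groups did not overlap for 11 of 37 (29.7%), the same share as of all genes (29.7%).

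Mitochondrial carriers of the slc25 family rose in 2 of 25 and fell in 1, with a class median of 0.08. In either direction 12% passed, beside 8.83% of all genes. Slc25a38b, of the carrier that brings glycine into mitochondria for heme synthesis, had ratios of 1.21, 1.14 and 1.14 across exposed pools 1 to 3, against 0.859, 0.811 and 0.835 across control pools 1 to 3. The pools of each group lay within a narrow range, and the difference was 0.48 ± 0.09 (adjusted p = 0.0198). Slc25a3b, of the phosphate carrier that feeds ATP synthesis, had ratios of 1.22, 1.18 and 1.07 across exposed pools 1 to 3, against 0.810, 0.929 and 0.799 across control pools 1 to 3, and rose by 0.45 ± 0.11 (adjusted p = 0.0424). The call of slc25a38b needed each of the exposed pools and control pools 2 and 3, and that of slc25a3b all 6 arrays. The differences moved little when 1 array was left out, from 0.45 to 0.50 for slc25a38b and from 0.41 to 0.52 for slc25a3b. The call of slc25a3b was also lost with quantile normalization, centring, a block on replicate number or probe sets as the unit. That of slc25a38b was also lost with the block.

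The fall among mitochondrial carriers was that of slc25a55a, for which RefSeq lists the symbol slc25a22, a mitochondrial glutamate carrier in mammals, as an older name. Its ratios were 0.770, 0.616 and 0.612 across exposed pools 1 to 3, against 1.39, 1.23 and 1.44 across control pools 1 to 3. Every exposed pool lay below every control pool, the difference was -1.03 ± 0.13 (adjusted p = 0.00495), a 2.04-fold lower value, and the call held without any 1 array. Slc25a17 belongs to this family by sequence but acts in peroxisomes, and it had -0.23 ± 0.20 (adjusted p = 0.570).

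The largest difference among mitochondrial carriers did not pass. Slc25a4 encodes the muscle form of the carrier that exchanges ADP for ATP, and its ratios were 2.58, 1.05 and 1.36 across exposed pools 1 to 3, against 0.194, 0.950 and 0.295 across control pools 1 to 3. Control pools 1 and 3 were low and control pool 2 was near the exposed pools, as for the muscle markers. The difference of slc25a4 was 2.03 ± 0.59 (adjusted p = 0.0810), and without control pool 2 it passed (2.69, adjusted p = 0.0162). Leaving out any other 1 array gave no pass (adjusted p from 0.113 to 0.239). All 18 muscle markers had a positive difference, with a median of 1.35, and none passed in limma. By an unadjusted p under 0.05, 13 were up and 0 down, beside 1116 up and 1005 down of all 8793 genes. The part of muscle in the value of slc25a4 was not tested.

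Further mitochondrial carriers came close to the threshold. Slc25a43 had ratios of 1.12, 1.29 and 1.08 across exposed pools 1 to 3, against 0.916, 0.317 and 0.357 across control pools 1 to 3, with control pool 1 apart from the other controls, and a difference of 1.30 ± 0.37 (adjusted p = 0.0777). Without control pool 1 it passed (1.79, adjusted p = 3.48e-04), but not with any other 1 array left out (adjusted p from 0.177 to 0.191). Slc25a12, of an aspartate-glutamate carrier that moves reducing power into mitochondria, had 0.47 ± 0.15 (adjusted p = 0.0995). It passed without control pool 2 (0.63, adjusted p = 0.0271), but not with any other 1 array left out (adjusted p from 0.167 to 0.231). Slc25a33, of a pyrimidine nucleotide carrier, had 0.38 ± 0.10 (adjusted p = 0.0671) with no overlap between the groups. The carnitine-acylcarnitine carrier gene slc25a20, of fatty acid oxidation, had 0.18 ± 0.13 (adjusted p = 0.468) and the citrate carrier gene slc25a1a 0.08 ± 0.12 (adjusted p = 0.768). The other 15 mitochondrial carriers had differences from -0.20 ± 0.09 (slc25a14) to 0.50 ± 0.43 (slc25a48), none of which passed, and in 2 of them the groups did not overlap. Over the whole mitochondrial class the groups did not overlap for 9 of 25 (36%), beside 29.7% of all genes.

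Of 25 carriers of monocarboxylates, organic ions, fatty acids, nucleosides and vitamins, 2 rose and none fell in limma. By an unadjusted p under 0.05, 6 were up and 1 down, beside 1116 up and 1005 down of all 8793 genes. The share that passed was 8%, beside 8.83% of all genes, and the class median was 0.07. Slc16a12b belongs to the monocarboxylate transporter family, and its mammalian counterpart carries creatine. Its ratios were 1.27, 1.53 and 1.36 across exposed pools 1 to 3, against 0.726, 0.258 and 0.452 across control pools 1 to 3, and it rose by 1.66 ± 0.33 (adjusted p = 0.0267), or 3.15-fold. The exposed pools were alike and the control pools were not. The call needed each of the exposed pools and control pool 3, with differences from 1.27 to 2.02 when 1 array was left out. Slc22a31, of the organic ion transporter family, had ratios of 1.28, 1.25 and 1.17 across exposed pools 1 to 3, against 0.619, 0.835 and 0.805 across control pools 1 to 3, and rose by 0.72 ± 0.13 (adjusted p = 0.0208). Its call needed each of the exposed pools, with differences from 0.58 to 0.80 when 1 array was left out.

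The lowest value in this class belonged to slc29a2, an equilibrative nucleoside transporter gene, with ratios of 0.731, 0.573 and 0.987 across exposed pools 1 to 3, against 1.01, 1.26 and 1.80 across control pools 1 to 3. Its difference was -0.83 ± 0.26 (adjusted p = 0.101), and without control pool 1 it passed (-1.02, adjusted p = 0.0396). Leaving out any other 1 array gave no pass (adjusted p from 0.0983 to 0.243). Slc27a2a, of very long-chain fatty acid uptake and activation, had a high ratio in exposed pool 2 alone (1.12, 2.83 and 1.15 in exposed and 0.642, 0.884 and 0.810 in control pools), with a difference of 0.99 ± 0.35 (adjusted p = 0.137). Exposed pool 2 was also the pool with the highest lipoprotein marker median, and the part of liver or yolk tissue in this value was not tested. Slc13a2, of a dicarboxylate carrier and with a probe set median below 1, had exposed ratios of 2.01, 0.690 and 0.617 against 0.557, 0.548 and 0.595, and a difference of 0.74 ± 0.41 (adjusted p = 0.338). Slc16a9a had exposed ratios of 2.65, 1.10 and 0.899 against 0.716, 1.74 and 0.769, and a difference of 0.48 ± 0.47 (adjusted p = 0.623).

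The lactate transporter gene slc16a3b, whose mammalian counterpart exports lactate from glycolytic cells, had 0.71 ± 0.25 (adjusted p = 0.136) with no overlap between the groups. The lysosomal carrier genes slc17a5, of the sialic acid exporter, and slc49a4 had 0.47 ± 0.15 (adjusted p = 0.103) and 0.41 ± 0.16 (adjusted p = 0.174). The bile acid carrier gene slc10a2, the fatty acid transport gene slc27a1a, the heme transporter gene slc48a1b and the folate transporter gene slc46a1 had differences of -0.02, -0.12, 0.07 and -0.27, none of which passed. The other 12 members of this class had differences from -0.19 ± 0.21 (slc5a6b) to 0.17 ± 0.14 (slc52a3-1), none of which passed, and in 0 of them the groups did not overlap. Over the whole class the groups did not overlap for 8 of 25 (32%), beside 29.7% of all genes.

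Nucleotide sugar carriers bring the building blocks of glycans into the Golgi and the endoplasmic reticulum. Their class of 8 here also held related members of no known substrate. None of the 8 was called in limma, beside 8.83% of all genes, and 8 members are too few to show a lower share. By an unadjusted p under 0.05, 0 were up and 0 down, beside 1116 up and 1005 down of all 8793 genes. The class median was -0.04. Its members ran from -0.22 (slc35e1, 95% interval -0.45 to 0.02) to 0.19 (slc35h1, 95% interval -0.29 to 0.67). The 2 genes that encode no carrier, slc4a1ap and slc7a6os, had differences of 0.00081 and -0.016.

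**Figure D3:**
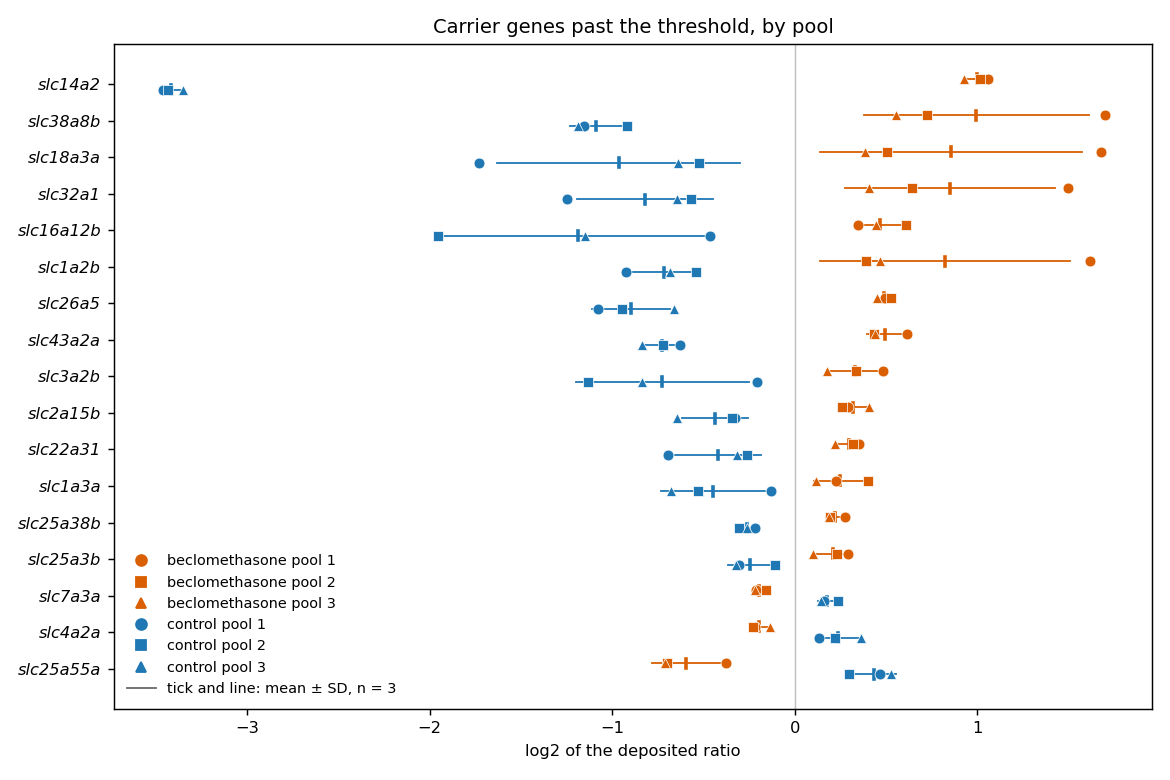
Log2 ratio of the 17 carrier genes past the threshold in each pool, with exposed pools in orange, control pools in blue, and the mean ± SD of each group (n = 3). The groups do not overlap in any of the 17 genes, and exposed pool 1 lies apart from exposed pools 2 and 3 in slc38a8b, slc18a3a, slc32a1 and slc1a2b.

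Carriers work beside pumps, channels and ATP-driven transporters, which were followed as lists chosen by symbol. Of 13 subunits of the sodium pump, which builds the sodium gradient, 3 rose (23.1%, beside 4.24% of all genes) and none fell. Their median was 0.20, and 5 of the 13 are also in the ionocyte list. The 3 that rose were the subunit genes atp1a1a.2 (1.70 ± 0.33, adjusted p = 0.0235), atp1b1b (0.80 ± 0.20, adjusted p = 0.0489) and atp1b2a (0.76 ± 0.17, adjusted p = 0.0395). Atp1a1a.2 had ratios of 2.44, 1.70 and 1.27 across exposed pools 1 to 3, against 0.343, 0.734 and 0.612 across control pools 1 to 3. Of 15 genes of the proton pump of acid compartments, 1 rose (6.67%), atp6v0cb (1.05 ± 0.23, adjusted p = 0.0350), and the median was 0.05. Of 14 ABC transporters, 1 fell (7.14%, beside 4.58% of all genes), and the median was 0.09. This was abca12 (-0.68 ± 0.17, adjusted p = 0.0493), a lipid transporter gene of the human skin barrier. None of 5 aquaporins and 2 organic anion transporters of the slco family passed in limma. By an unadjusted p under 0.05, 2 and 1 were up and 0 down, beside 1116 up and 1005 down of all 8793 genes. The water channel gene aqp1a.1 had 0.75 ± 0.21 (adjusted p = 0.0707) and slco1d1 had 0.62 ± 0.19 (adjusted p = 0.0974).

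Of the 17 calls among the solute carriers, 5 held without any 1 array: slc14a2, slc38a8b, slc43a2a and slc26a5 among the genes that rose and slc25a55a among those that fell. Slc25a3b and slc7a3a lost the call in all 6 such fits, where their differences ran from 0.41 to 0.52 and from -0.40 to -0.35. With exposed pools 1 and 2 both left out because of their high lipoprotein markers, the exposed group was 1 array, the spread came from the controls alone, and the lone array was assumed to vary as they did. In this limma fit slc14a2 alone of the members passed (20 up and 2 down by an unadjusted p under 0.05), and of all 8793 genes 3 rose and 2 fell.

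**Figure D4:**
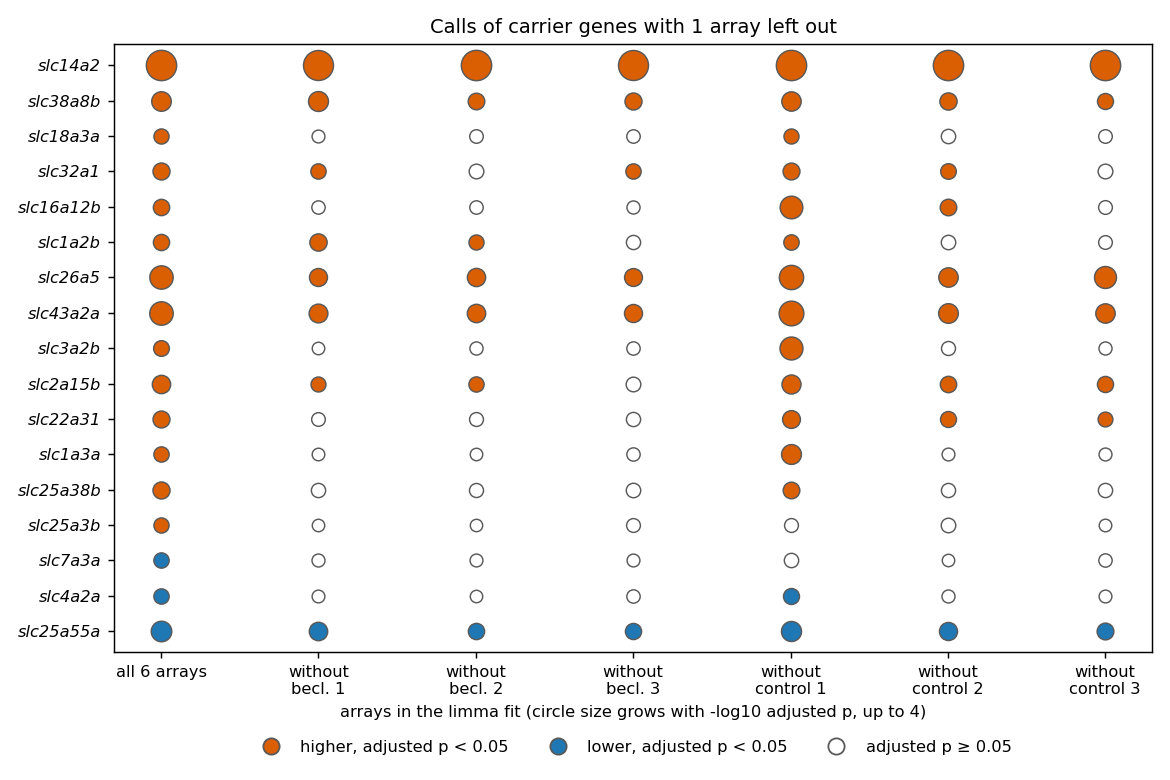
Calls of the 17 genes in the limma fit of all 6 arrays and with each array left out, with filled circles for an adjusted p under 0.05 and circle size growing with -log10 of the adjusted p. Slc14a2, slc38a8b, slc26a5, slc43a2a and slc25a55a are filled in all 7 columns.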

How the data were processed

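Per the labels' protocols, RNA of the 6 fin pools was amplified in 2 cycles and put on Affymetrix zebrafish arrays, 1 array a pool. The submitters' processing notes name GCRMA, which corrects background and summarises probes. The values deposited by the authors were read as a linear ratio per probe set, since 12601 of 15617 probe sets had a median over the 6 arrays that equalled 1 to within 1e-06, and 3015 had a lower one. No source used here describes that division. Of the 158 solute carrier probe sets, 31 had a median below 1. The design had allowed for ratios: log2 without a pseudocount.

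Control probe sets (115) were left out. Genes were named from the array annotation given with the data where it gave 1 symbol (10795 probe sets; 135 had several and 4572 none), symbols were updated through Entrez numbers, and log2 ratios of a gene's probe sets were averaged. The test was limma's moderated comparison of the groups (version 3.58.1, R 4.3.3, two-sided), tested on simulated data. The number of arrays limits the precision, no batch is labelled, and nothing says whether the pools came from separate clutches, so p-values measure only the spread between these pools. An exact permutation test of 3 against 3 pools cannot give a two-sided p below 0.1 and was not used.

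Members, classes and lists were chosen with earlier results of these data known. Named genes were every member past the threshold, the 3 of smallest p and the highest and lowest in each class, slc14a2, and members whose probe sets differed in sign or by over 1 on the log2 scale, 36 in all. Other members are named after their values were seen. Alternatives were run on the whole gene table and were quantile normalization, centring, array weights, a robust fit with a variance trend, each array left out in turn, a block on replicate number, 1 added before the log2 as a pseudocount, leaving out probe sets of median below 1, the median of probe sets, probe sets as the unit, a 2-fold and a looser threshold, and, added after values were known, leaving out exposed pools 1 and 2 together. In the fit with probe sets as the unit, each gene was represented by its probe set of smallest p, adjusted over all probe sets tested. No sequences or coordinates were used here.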

Additional observations from a re-analysis of the deposited data

How the results depend on the processing

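The number of carrier genes that rose, 14 over all arrays, was 12 to 18 and the number that fell, 3, was 2 to 4 under quantile normalization, centring, array weights, a robust fit with a variance trend, a pseudocount of 1, leaving out probe sets of median below 1, the median of probe sets and probe sets as the unit. Under the same settings 302 to 592 of all genes rose and 377 to 618 fell, beside 373 and 403 in the main fit. With each array left out, the numbers of carrier genes ran from 5 to 17 for rises and from 1 to 5 for falls. Those of all genes then ran from 160 to 446 and from 172 to 527. Requiring at least a 2-fold difference beside the adjusted p left 9 rises and 1 fall, an adjusted p under 0.1 gave 22 rises, and leaving out exposed pools 1 and 2 together, which leaves 1 exposed array and the spread of the controls alone, gave 1 rise and 0 falls in limma (20 up and 2 down by an unadjusted p under 0.05) where all genes gave 3 and 2. At an adjusted p under 0.1, 3 carrier genes fell beside the 22 that rose. Counts of all genes at the 2-fold and the looser threshold are not given. The carrier counts at these thresholds therefore cannot show whether carriers passed more often than all genes. Replicate numbers did not pair the pools. Deviations of same-numbered pools correlated at -0.22, -0.076 and 0.078, and 1 of 6 arrays correlated best with its own number. With the replicate block, 5 carrier genes rose and 1 fell. Of all genes 178 rose and 213 fell with the block, beside 373 and 403 without it. The block ended the calls of slc16a12b, slc18a3a, slc1a2b, slc1a3a, slc22a31, slc25a38b, slc25a3b, slc2a15b, slc32a1, slc4a2a and slc7a3a. The median difference of the family, 0.07, was 0.030 with quantile normalization, 0.034 with a pseudocount of 1 and 0.15 without exposed pools 1 and 2. It was 0.024 to 0.11 with each array left out. The median of all genes, 0.02, was -0.019 with quantile normalization, 0.0090 with the pseudocount and 0.059 without exposed pools 1 and 2. With each array left out it was -0.0051 to 0.048, so the medians of all genes moved as well. No difference with a call on either side changed sign. Array weights, which give arrays unequal influence, gave 18 rises and 4 falls among the carriers, where 592 of all genes rose and 618 fell. With them slc25a43, slc29a2, slc2a3a, slc38a4 and slc39a13 also passed. The variance trend added slc2a11b, and probe sets as the unit added slc12a9. With probe sets as the unit a gene was represented by its probe set of smallest p alone. For slc12a9 this left aside the probe set with a difference of -0.30. Apart from the block, calls were lost for slc18a3a with centring, the variance trend, a pseudocount of 1 and probe sets as the unit. The pseudocount also ended the call of slc1a2b. Quantile normalization and probe sets as the unit each ended that of slc1a3a. The call of slc25a3b was lost with quantile normalization, centring and probe sets as the unit. That of slc7a3a was lost with probe sets as the unit and that of slc4a2a with the median of probe sets. The cause of these changes was not tested, and the fits that leave arrays out also hold fewer arrays. Probe sets of median below 1, whose divisor is unknown, give values whose relation to signal over background is unknown.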

Other observations

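Several carriers are present on the array as pairs of paralogues, and their values stood side by side as follows, with the difference between paralogues not tested. Slc43a2a had a difference of 1.23 ± 0.10 (adjusted p = 0.00154) and slc43a2b, whose probe set had a median below 1, 0.05 ± 0.08 (adjusted p = 0.784). The heavy chain gene slc3a2b had 1.06 ± 0.23 (adjusted p = 0.0338) and slc3a2a 0.12 ± 0.10 (adjusted p = 0.562). Slc25a55a had -1.03 ± 0.13 (adjusted p = 0.00495) and slc25a55b 0.06 ± 0.19 (adjusted p = 0.891). The phosphate carrier gene slc25a3b had 0.45 ± 0.11 (adjusted p = 0.0424) and slc25a3a 0.07 ± 0.13 (adjusted p = 0.810), and slc37a4b had 1.30 ± 0.45 (adjusted p = 0.129) where slc37a4a had -0.14 ± 0.17 (adjusted p = 0.700). The pools of slc3a2a ranged from 0.876 to 1.02 and those of slc25a55b from 0.761 to 1.19, and in both the groups overlapped.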
